A study of Mus musculus with 16 samples.

Results

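The 9 genes described here encode the fast and slow forms of troponin and tropomyosin, the regulatory proteins of the muscle thin filament. They were chosen by name from the 11710 genes of the count table: Tnnt1, Tnni1 and Tnnc1 (slow troponins), Tnnt3, Tnni2 and Tnnc2 (fast troponins), and the tropomyosins Tpm1, Tpm2 and Tpm3. The study measured RNA by sequencing in rotator cuff muscle of mice from 2 strains, C57BL/6J (BL6) and MRL/MpJ (MRL). In each strain 4 samples came from unoperated muscle and 4 from muscle after tenectomy (removal of tendon) together with denervation, so that 16 samples form 4 groups. The muscle is called the supraspinatus in the sample labels and the infraspinatus in the description of the series. The labels name no transgene, drug, sex or age, and the time after surgery was not used here. They do not say whether the samples of a group came from separate animals, so the p-values measure the spread between these samples, which may be technical.

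Troponin sits on the thin filament as a complex of 3 subunits. Troponin C binds calcium, troponin I holds the filament in its inhibited state, and troponin T anchors the complex to tropomyosin, a coiled rod that lies along actin and covers or uncovers the myosin binding sites. Fast and slow fibres use separate genes for each troponin subunit, and the slow troponin C gene is also the cardiac one. Among the tropomyosins, Tpm1 gives the alpha form of fast fibres, Tpm3 the alpha form of slow fibres, and Tpm2 the beta form found in both. Tpm1, Tpm2 and Tpm3 also give non-muscle or smooth muscle isoforms, and the counts per gene analysed here pool all isoforms of a gene. Innervation is known to shape which of these forms a fibre makes.

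The promoters of the slow troponin genes are shown because the results turn on how far these 3 genes moved together, with that of Tnnc2 as a fast counterpart and that of Tpm3 as the slow tropomyosin. Each sequence holds the 250 bases before a RefSeq start on GRCm38.p6, 5′ to 3′ on the gene's strand, and for Tnni1 and Tpm3 the start farthest upstream was taken.
Tnnt1, chr7:4515976-4516225, minus strand: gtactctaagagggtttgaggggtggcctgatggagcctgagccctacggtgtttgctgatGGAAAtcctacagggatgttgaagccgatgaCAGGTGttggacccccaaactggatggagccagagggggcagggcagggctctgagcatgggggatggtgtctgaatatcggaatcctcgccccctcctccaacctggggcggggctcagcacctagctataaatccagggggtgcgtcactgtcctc
Tnni1, chr1:135799171-135799420, plus strand: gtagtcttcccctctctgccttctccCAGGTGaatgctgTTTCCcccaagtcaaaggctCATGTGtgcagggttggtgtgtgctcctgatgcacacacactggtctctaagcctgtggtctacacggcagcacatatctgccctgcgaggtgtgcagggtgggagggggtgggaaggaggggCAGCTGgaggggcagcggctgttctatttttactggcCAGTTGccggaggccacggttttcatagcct
Tnnc1, chr14:31208062-31208311, plus strand: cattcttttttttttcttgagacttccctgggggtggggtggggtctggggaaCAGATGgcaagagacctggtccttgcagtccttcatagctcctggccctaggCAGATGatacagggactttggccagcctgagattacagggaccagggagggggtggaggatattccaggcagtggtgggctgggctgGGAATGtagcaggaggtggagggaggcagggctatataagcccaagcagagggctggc
Tnnc2, chr2:164779735-164779984, minus strand: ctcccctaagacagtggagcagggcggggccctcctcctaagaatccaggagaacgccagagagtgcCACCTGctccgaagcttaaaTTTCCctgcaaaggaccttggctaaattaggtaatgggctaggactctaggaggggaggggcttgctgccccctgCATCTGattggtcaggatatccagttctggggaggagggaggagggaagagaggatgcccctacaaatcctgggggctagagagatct
Tpm3, chr3:90072401-90072650, plus strand: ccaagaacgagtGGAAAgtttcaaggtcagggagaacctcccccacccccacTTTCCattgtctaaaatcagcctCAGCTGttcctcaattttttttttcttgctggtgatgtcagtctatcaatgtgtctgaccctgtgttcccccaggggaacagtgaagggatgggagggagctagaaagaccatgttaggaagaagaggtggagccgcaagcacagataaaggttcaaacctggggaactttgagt
Capitals mark matches, on either strand, to any of 5 motifs of muscle regulation. These are the E-box CANNTG, the MCAT motif CATTCC, the NFAT core GGAAA, the MEF2 site and the CArG box. The Tnni1 window held 4 E-boxes, those of Tnnc1 and Tnnc2 held 2 each, and those of Tnnt1 and Tpm3 held 1 each. The Tnnc1 window held 1 MCAT motif, and the other 4 windows held 1 NFAT core each, except that of Tpm3, which held 2. None of the 5 windows held a MEF2 site or a CArG box. Over 32851 windows of the same length the E-box occurred in 66.2%, the MCAT motif in 12.6%, the NFAT core in 55.6%, the MEF2 site in 2.92% and the CArG box in 1.47%. Matches of these short motifs describe the letters only. A promoter window was matched for 7 of the 9 genes.

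Sequencing depth was high for these genes. Total counts per sample ran from 24323862 to 43552964, and the lowest count of any of the 9 genes in any sample was 64, for Tnnc1. The 9 genes together took between 4.60% and 8.33% of all counts of a sample. The tissue label was checked with 6 skeletal muscle markers (Ckm, Des, Ttn, Pygm, Ryr1 and Cacna1s), whose summed level was 38176 to 54235 CPM (counts scaled to a library of 1000000) in unoperated BL6 samples, 16737 to 39532 in operated BL6, 33891 to 41741 in unoperated MRL and 21827 to 31001 in operated MRL. Markers of other cells were present in all groups, and some of these lists moved with surgery. Summed fibroblast and macrophage markers overlapped between operated and unoperated samples in both strains. Smooth muscle markers ran from 81.2 to 122 CPM in unoperated and from 275 to 562 in operated BL6 samples, and from 94.2 to 152 and from 200.4 to 389 in MRL. Adipocyte markers ran from 208 to 279 and from 1209 to 1656 CPM in BL6, and from 262 to 369 and from 1086 to 1902 in MRL. Most of this sum was 1 gene, Fabp4. It ran from 201 to 270 and from 1160 to 1445 CPM in BL6, and from 254 to 356 and from 903 to 1870 in MRL. In such bulk samples fewer fibres of a type and less RNA per fibre cannot be told apart. On the first principal component of log2 CPM, the operated BL6 samples spread from replicate 2, at 16.7, over 44.6 and 51.0 to replicate 4, at 86.1. MRL unoperated replicate 1 lay at -7.49, against -44.9 to -38.7 in its group, and MRL operated replicate 4 at 13.4, against 25.9 to 54.8. For the 9 genes, values without 1 of these 4 libraries are given where a call changes. MRL operated replicate 4 also had 11.8% of its counts in mitochondrial genes, against 20.1% to 24.9% in the other operated MRL samples.

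In unoperated muscle the fast forms far outnumbered the slow forms. Per kilobase of annotated exon, the levels in unoperated BL6 muscle were 16031 ± 1348 CPM per kb for Tnnt3 (mean ± SD, n = 4), 14599 ± 1341 for Tnnc2 and 6789 ± 713 for Tnni2. The tropomyosins followed at 3588 ± 364 CPM per kb for Tpm2 and 1784 ± 156 for Tpm1. The slow genes were low, at 8.18 ± 3.0 CPM per kb for Tnnt1, 5.09 ± 1.83 for Tnnc1, 3.82 ± 0.563 for Tpm3 and 1.23 ± 0.315 for Tnni1. Neighbours in this order whose sample ranges overlapped were Tnnt3 and Tnnc2, Tnnt1 and Tnnc1, and Tnnc1 and Tpm3. The order was the same in unoperated MRL muscle except that Tnnc2, at 13962 ± 819 CPM per kb, stood above Tnnt3, at 13122 ± 198. The order of some neighbours depends on the length taken for a gene. Per kilobase of the longest transcript Tpm3 stood above Tnnc1 in both strains, at 9.79 against 7.34 CPM per kb in BL6 and 10.4 against 7.03 in MRL. In MRL Tnnt3 then stood above Tnnc2, at 19251 against 15957 CPM per kb, and Tpm1 above Tpm2, at 4726 against 3973.

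**Figure D1:**
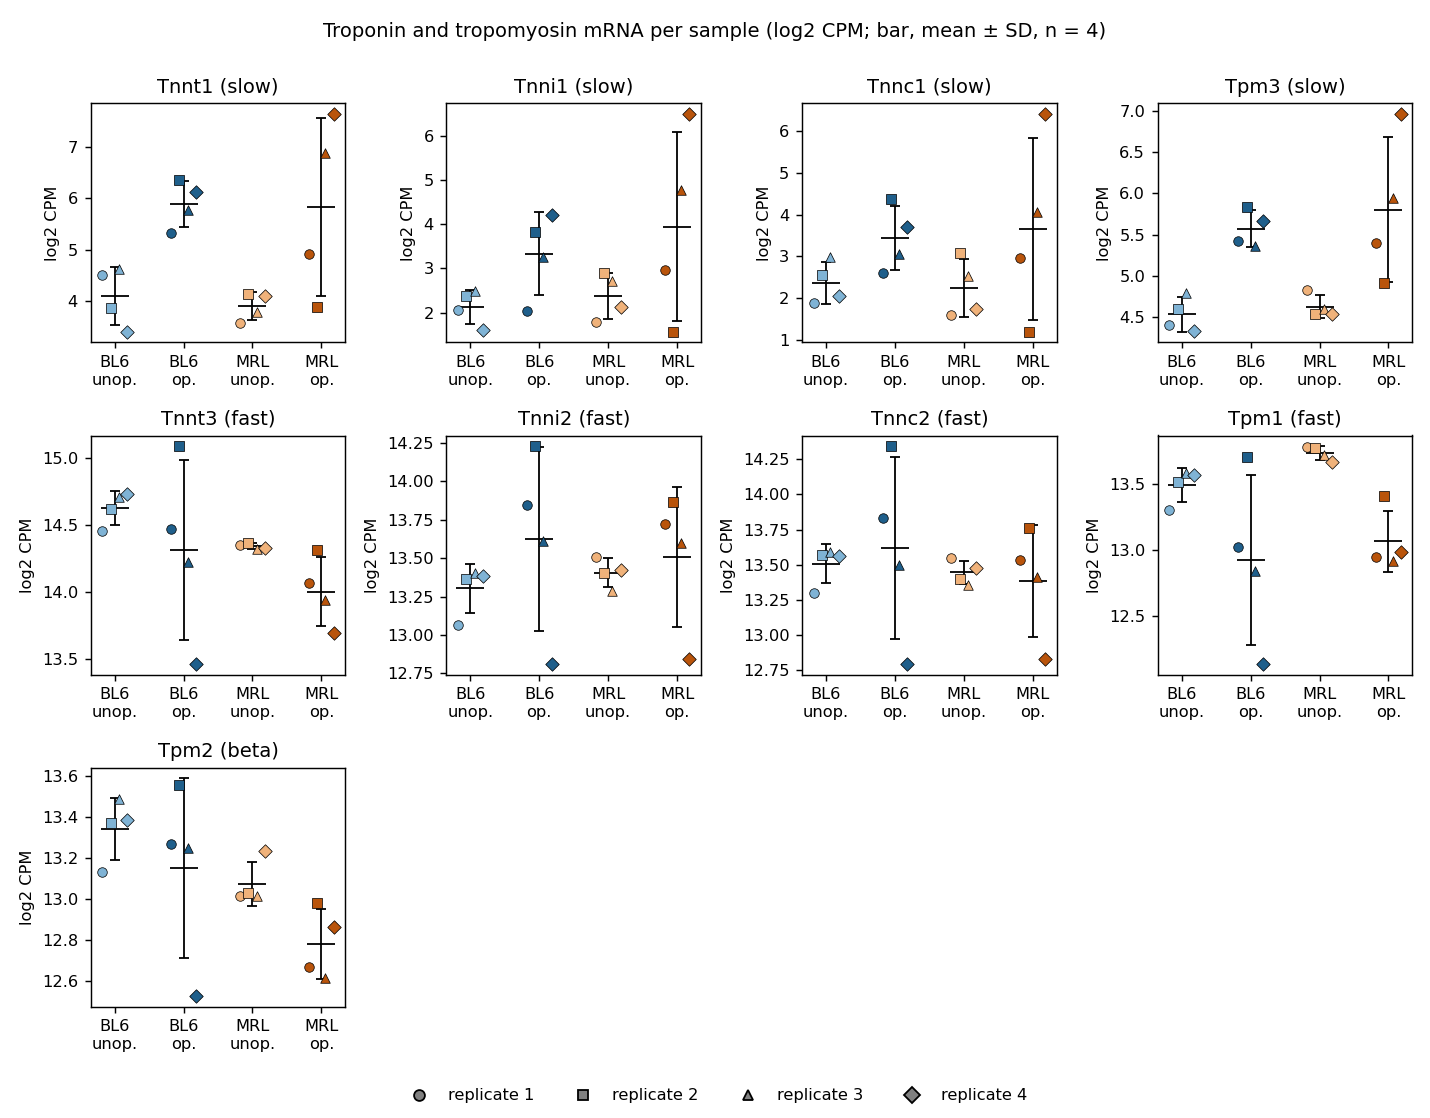
Level of the 9 genes in each of the 16 samples on a log scale of CPM, 1 panel per gene, with each point a sample and each group mean marked. The slow genes spread widest in operated MRL muscle, where Tnnt1 ran from 14.6 to 199 CPM, while the fast troponins lay between 7123 and 34765 CPM in all samples.

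Surgery raised 2 of the 9 genes in BL6 muscle, Tnnt1 and Tpm3, and lowered none, with calls made below 0.05 after Benjamini-Hochberg adjustment over all genes in the quasi-likelihood F test of edgeR. In the same comparison 67.9% of the 11709 genes tested were called, 35.1% higher and 32.8% lower. In MRL muscle surgery raised 4 of the 9 genes, Tnnt1, Tnni1, Tnnc1 and Tpm3, and lowered 1, Tpm1, where 45% of all genes were called, 22.3% higher and 22.7% lower. The median log2 fold change of the 9 genes was 0.40 in BL6, beside 0.04 over all genes tested, and 0.15 in MRL, beside 0.01. In both strains every gene called higher was 1 of the 4 grouped here as slow, of which Tpm3 also gives cytoskeletal isoforms. No fast troponin was called. In the authors' deposited table of group comparisons the same 2 and 5 genes passed a false discovery rate under 0.05.

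Tnnt1 (ENSMUSG00000064179, chr7:4504570-4516382, minus strand of GRCm38) encodes slow troponin T, which ties the complex to tropomyosin in slow fibres. In the 4 unoperated BL6 samples it stood at 22.6, 14.5, 24.4 and 10.5 CPM, and in the 4 operated ones at 39.8, 82.2, 54.3 and 69.1 CPM. All operated BL6 samples thus lay above all unoperated ones. The rise was 1.77 ± 0.57 on the log2 scale (SE), or 3.41-fold, and passed the test (adjusted p = 0.0128, edgeR). In MRL muscle Tnnt1 stood at 11.7, 17.4, 13.7 and 17.1 CPM without surgery and at 30.2, 14.6, 118 and 199 CPM after it. Replicates 3 and 4 of the operated MRL samples were high, replicate 1 lay between, and replicate 2 fell within the unoperated range. The fitted rise in MRL was 2.59 ± 0.59 (adjusted p = 0.00399, edgeR), and without replicate 4 of the operated MRL samples it was 1.86 (adjusted p = 0.00778).

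Tnni1 (ENSMUSG00000026418, chr1:135779434-135810989, plus strand) encodes slow troponin I, the inhibitory subunit. Its unoperated values were 4.09, 5.10, 5.55 and 3.004 CPM in BL6 and 3.39, 7.36, 6.55 and 4.28 CPM in MRL. After surgery they were 4.08, 14.0, 9.56 and 18.3 CPM in BL6 and 7.75, 2.91, 27.1 and 89.3 CPM in MRL. In each strain 3 of the 4 operated samples lay above every unoperated one, and the groups overlapped through the remaining sample. The fitted log2 fold change was 1.38 ± 0.73 in BL6 (adjusted p = 0.107, edgeR) and 2.56 ± 0.75 in MRL (adjusted p = 0.0134). Without MRL operated replicate 4 the MRL value was 1.23 and no longer passed (adjusted p = 0.0914), and with limma voom it was 1.67 and did not pass (adjusted p = 0.133). The BL6 value, at 1.38, passed without that library (adjusted p = 0.0380) and without MRL operated replicate 2 (adjusted p = 0.0475), and at 1.35 in a fit of the BL6 groups alone (adjusted p = 0.0147). The fit shares 1 estimate of the spread over all groups.

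Tnnc1 (ENSMUSG00000091898, chr14:31208312-31211729, plus strand) encodes the calcium-binding subunit of slow and cardiac muscle. Without surgery it stood at 3.60, 5.74, 7.80 and 4.03 CPM in BL6 and at 2.93, 8.36, 5.71 and 3.28 CPM in MRL. With surgery the values were 6.01, 20.5, 8.30 and 13.0 CPM in BL6 and 7.71, 2.22, 16.7 and 85.0 CPM in MRL. The groups overlapped in both strains, and MRL operated replicate 4 was far above every other sample. The log2 fold change was 1.17 ± 0.77 in BL6 (adjusted p = 0.183, edgeR) and 2.46 ± 0.79 in MRL (adjusted p = 0.0203). Without that library the MRL value was 0.81 and did not pass (adjusted p = 0.238). Without MRL unoperated replicate 4 it was 2.31 and did not pass either (adjusted p = 0.0570). The call was also lost with limma voom (1.55, adjusted p = 0.171), in a fit of the MRL groups alone (2.45, adjusted p = 0.0573) and with a replicate block (adjusted p = 0.0549). In a fit of the BL6 groups alone the BL6 value of 1.14 passed (adjusted p = 0.0245). Tnnc1 lies on the opposite strand within the span of Nisch, with 0 of its 1041 exon bases shared with Nisch exons, and use of strand in counting is not given in the sources used here.

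Tpm3 (ENSMUSG00000027940, chr3:90072649-90100902, plus strand) encodes the slow alpha-tropomyosin and cytoskeletal isoforms of other cells. It stood at 21.1, 24.2, 27.6 and 20.1 CPM in unoperated and at 42.8, 57.1, 41.1 and 50.7 CPM in operated BL6 muscle. In MRL it stood at 28.5, 23.1, 24.2 and 23.2 CPM without and at 42.2, 30.0, 61.5 and 124 CPM with surgery. Every operated sample lay above every unoperated sample of its strain. The rise was 1.04 ± 0.31 on the log2 scale in BL6 (adjusted p = 0.00754, edgeR) and 1.38 ± 0.31 in MRL (adjusted p = 0.00372), and without MRL operated replicate 4 the latter was 0.85 (adjusted p = 0.00275). Smooth muscle and adipocyte marker genes, 4 of 4 in each list, were also called higher after surgery in both strains, and endothelial markers in 4 of 5 (BL6) and 5 of 5 (MRL). Higher calls among the others were 5 of 5 and 4 of 5 for Schwann cell, 3 of 5 and 0 of 5 for macrophage and 2 of 5 and 0 of 5 for fibroblast markers. Of all genes tested, 35.1% were called higher in BL6 and 22.3% in MRL. The part of the cells named here in the Tpm3 counts was not tested. Near-identical copies of Tpm3 elsewhere in the genome make its counts uncertain.

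No fast troponin was called in either strain. Tnnt3 (ENSMUSG00000061723, chr7:142498836-142516009, plus strand), the fast troponin T, stood at 22450, 25145, 26772 and 27138 CPM in unoperated and at 22640, 34765, 19137 and 11306 CPM in operated BL6 muscle. The operated BL6 samples spread on both sides of the unoperated ones, with replicate 2 high and replicate 4 low. In MRL the values were 20926, 21137, 20476 and 20548 CPM without and 17165, 20296, 15704 and 13271 CPM with surgery, so that all operated samples lay below all unoperated ones. The log2 fold change was -0.21 ± 0.25 in BL6 (adjusted p = 0.475, edgeR) and -0.32 ± 0.25 in MRL (adjusted p = 0.300). Without BL6 operated replicate 2 the BL6 value was -0.52 and passed (adjusted p = 0.0417), and without replicate 4 it was 0.001.

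Tnni2 (ENSMUSG00000031097, chr7:142441808-142444410, plus strand) encodes fast troponin I. Its values were 8571, 10559, 10837 and 10683 CPM in unoperated and 14726, 19202, 12539 and 7193 CPM in operated BL6 muscle, and 11665, 10836, 9974 and 11001 CPM in unoperated and 13527, 14951, 12399 and 7333 CPM in operated MRL muscle. In both strains replicates 1 to 3 of the operated group lay above all unoperated samples and replicate 4 below them. The log2 fold changes were 0.40 ± 0.26 in BL6 (adjusted p = 0.178, edgeR) and 0.15 ± 0.26 in MRL (adjusted p = 0.649). Without BL6 operated replicate 4 the BL6 value was 0.60 and passed as higher (adjusted p = 0.0194). Without this library, MRL operated replicate 4 and MRL unoperated replicate 1 together, the BL6 value was 0.58 and passed (adjusted p = 0.00325). With total counts alone the BL6 value was 0.47 and passed as well (adjusted p = 0.0327).

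Tnnc2 (ENSMUSG00000017300, chr2:164777161-164779967, minus strand), the calcium sensor of fast fibres, ran from 10078 to 12362 CPM in unoperated and from 7123 to 20734 CPM in operated BL6 muscle. In MRL it ran from 10483 to 11959 CPM without and from 7282 to 13912 CPM with surgery. The groups overlapped in both strains, at log2 fold changes of 0.21 ± 0.26 (adjusted p = 0.488, edgeR) and -0.02 ± 0.26 (adjusted p = 0.949). Of the 800 exon bases of Tnnc2, 592 also lie in exons of Ube2c on the opposite strand. Ube2c itself stood between 4.23 and 7.45 CPM on total counts.

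Tpm1 (ENSMUSG00000032366, chr9:67022590-67049406, minus strand), the fast alpha-tropomyosin gene, fell in MRL muscle. It stood at 14076, 14031, 13505 and 13024 CPM without and at 7906, 10896, 7720 and 8125 CPM with surgery, so that all operated MRL samples lay below all unoperated ones. The change was -0.66 ± 0.25 on the log2 scale, or 1.58-fold lower (adjusted p = 0.0399, edgeR). The call was lost without any 1 of the 4 unoperated MRL samples, of operated MRL replicates 1, 3 and 4, or of unoperated BL6 replicates 2 and 4, with adjusted p-values from 0.0502 to 0.102 and nearly the same fold change. In BL6 Tpm1 stood at 10098, 11721, 12282 and 12185 CPM without and at 8323, 13389, 7344 and 4499 CPM with surgery. There replicate 2 of the operated group lay above, and the other 3 below, all unoperated samples. The BL6 change was -0.46 ± 0.24 (adjusted p = 0.103, edgeR), and without operated replicate 2 it was -0.78 and passed (adjusted p = 0.00307).

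Tpm2 (ENSMUSG00000028464, chr4:43514711-43523765, minus strand), the beta-tropomyosin gene, ran from 8965 to 11491 CPM in unoperated and from 5902 to 12029 CPM in operated BL6 muscle. In MRL it ran from 8271 to 9648 CPM without and from 6266 to 8077 CPM with surgery. The MRL groups did not overlap, yet the change of -0.29 ± 0.19 on the log2 scale did not pass (adjusted p = 0.215, edgeR), nor did that of -0.15 ± 0.19 in BL6 (adjusted p = 0.483). Groups did not overlap for 2 of the 9 genes in BL6, where 56.8% of all genes tested had groups apart, and for 4 of the 9 in MRL, where 33.7% did.

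**Figure D2:**
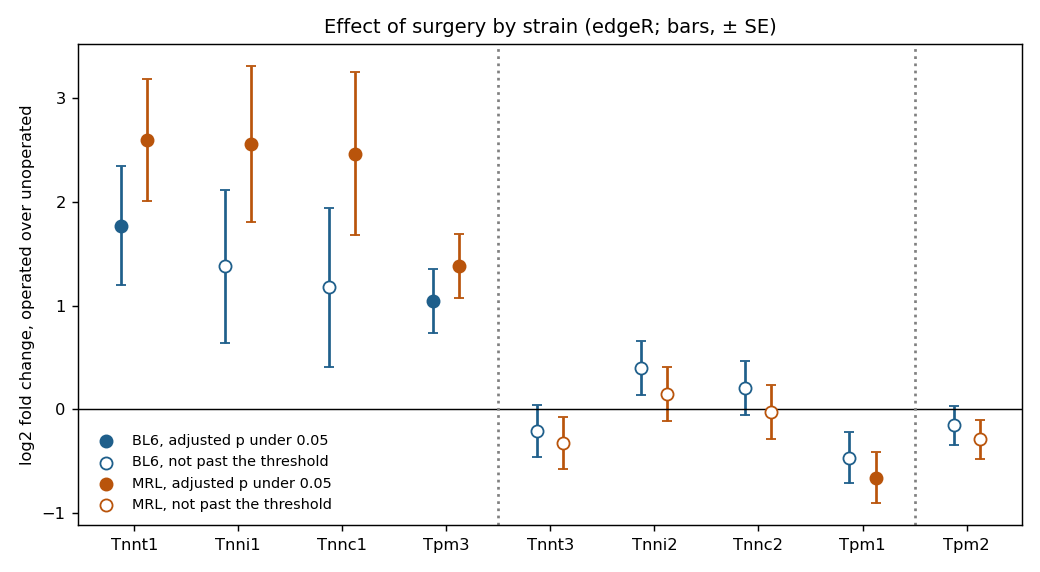
Log2 fold change with surgery for each of the 9 genes in BL6 and in MRL from the edgeR fit, with bars of 1 SE. The 4 slow genes lie between 1.04 and 2.59 and the 5 other genes between -0.66 and 0.40.

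The slow share of each pair was then taken within each sample, per kilobase of exon, which does not depend on library size. For Tpm3 this share includes its isoforms of other cells. The slow troponin T share, Tnnt1 of Tnnt1 plus Tnnt3, was 0.0724%, 0.0415%, 0.0656% and 0.0278% in unoperated BL6 muscle and 0.126%, 0.170%, 0.203% and 0.437% after surgery. In MRL it was 0.0403%, 0.0591%, 0.0482% and 0.0598% without and 0.126%, 0.0516%, 0.537% and 1.06% with surgery. All 4 operated BL6 samples, and 3 of 4 operated MRL samples, lay above every unoperated sample of their strain. The log2 ratio of Tnnt1 to Tnnt3 rose by 2.11 in BL6, 4.33-fold, with p = 0.0286 in a two-sided exact permutation test, the smallest p that 4 samples against 4 allow. Adjusted over the 20 ratio tests (4 pairs in 5 comparisons) this p was 0.191, and no ratio passed the adjustment. In MRL the log2 ratio was 2.28 higher (exact permutation p = 0.0857).

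Tpm3 against Tpm1 was the only pair whose operated and unoperated samples were apart in both strains. The Tpm3 share was 0.222%, 0.220%, 0.239% and 0.175% in unoperated and 0.546%, 0.453%, 0.593% and 1.19% in operated BL6 muscle. In MRL it was 0.215%, 0.175%, 0.190% and 0.190% without and 0.566%, 0.292%, 0.842% and 1.60% with surgery. The log2 ratio was 1.61 higher after surgery in BL6 and 1.85 higher in MRL, 3.05-fold and 3.60-fold, each with an exact permutation p of 0.0286 (two-sided, 0.191 after adjustment). In both strains replicate 4 of the operated group had the highest and replicate 2 the lowest share of its group.

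The other 2 pairs spread more. The Tnni1 share ran from 0.0117% to 0.0213% in unoperated and from 0.0116% to 0.106% in operated BL6 muscle, and from 0.0121% to 0.0283% and from 0.00815% to 0.504% in MRL. The log2 ratio to Tnni2 was 0.89 higher in operated BL6 (two-sided exact permutation p = 0.314) and 1.47 higher in operated MRL muscle (p = 0.400). Without MRL operated replicate 4 the MRL value was 0.40, and without BL6 operated replicate 4 the BL6 value was 0.33. The Tnnc1 share ran from 0.0257% to 0.0485% and from 0.0318% to 0.140% in BL6, and from 0.0190% to 0.0595% and from 0.0124% to 0.889% in MRL. Its log2 ratio to Tnnc2 was 0.98 higher in BL6 (exact permutation p = 0.114) and 1.49 higher in MRL (p = 0.343). Without replicate 4 of the operated group these were 0.61 and 0.38. In operated MRL muscle replicate 2 had the lowest and replicate 4 the highest slow share for all 4 pairs.

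**Figure D3:**
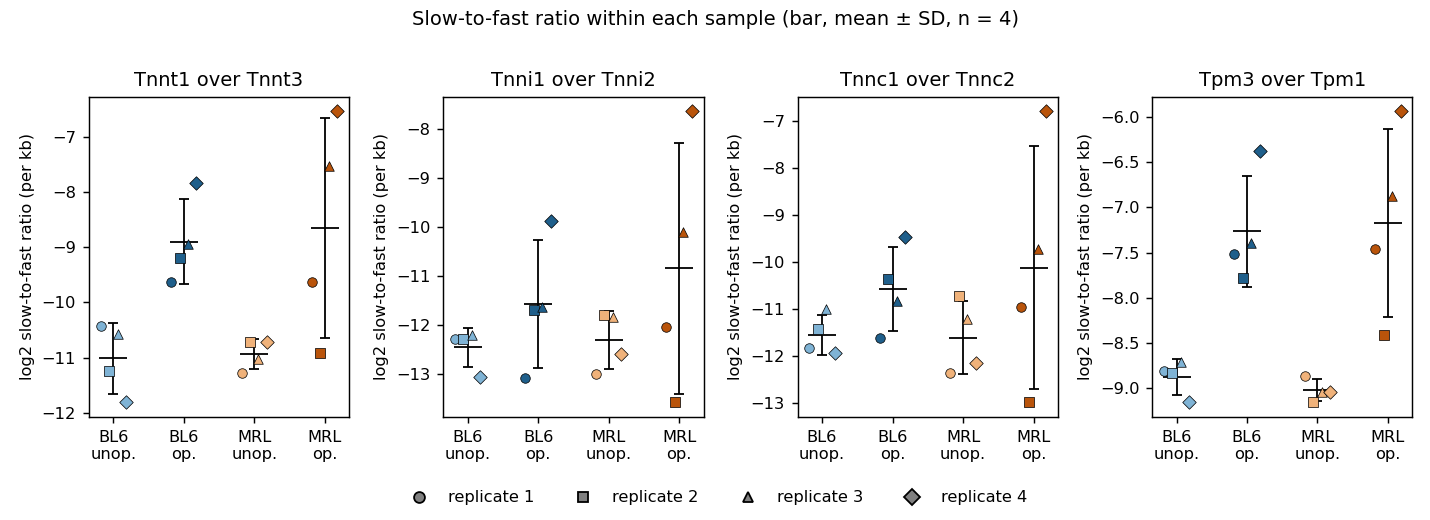
Slow form relative to the fast form of each pair in every sample, per kilobase of exon on a log scale, with 1 panel per pair. For Tnnt1 and Tpm3 all operated BL6 samples sit above the unoperated ones. For Tnnt1 the operated MRL samples reach from a slow share of 0.0516% to 1.06%.

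The effect of surgery was compared between the strains through the interaction of strain and surgery. None of the 9 genes passed in the edgeR fit, where 0.248% of all genes tested did. An unadjusted p under 0.05 was found for 0 of the 9 and for 1842 of the 11709 genes tested. DESeq2 and limma voom also called 0 of the 9. The largest differences, the MRL effect minus the BL6 effect on the log2 scale, were 1.29 ± 1.07 for Tnnc1 (adjusted p = 0.544, edgeR), 1.18 ± 1.02 for Tnni1 (adjusted p = 0.557) and 0.82 ± 0.79 for Tnnt1 (adjusted p = 0.597). Tpm3 followed at 0.34 ± 0.43. Without MRL operated replicate 4 the direction turned for Tnnc1 (-0.37), Tnni1 (-0.15) and Tpm3 (-0.19). For the slow to fast ratios the differences were 0.16 for Tnnt1, 0.58 for Tnni1, 0.51 for Tnnc1 and 0.24 for Tpm3, with two-sided exact permutation p-values of 0.880, 0.728, 0.745 and 0.706. Without that library all 4 of these differences lay below 0, at -0.54, -0.49, -0.59 and -0.17. The calls of Tnni1, Tnnc1 and Tpm1 in MRL and not in BL6 are therefore not shown to differ between the strains.

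Between the strains at rest, 0 of the 9 genes were called by edgeR, where 10.4% of all genes were. An unadjusted p under 0.05 was found for 0 of the 9 and for 2849 of the 11709 genes tested. DESeq2 and limma voom called 0 as well. Tnnt3 was lower in all unoperated MRL samples than in all BL6 samples (log2 difference -0.29 ± 0.25, adjusted p = 0.528, or 0.0268 in a fit of these groups alone), and Tpm1 was higher in all of them (0.24 ± 0.24, adjusted p = 0.597). These 2 of 9 genes without overlap stand beside 25.1% of all genes. Slow shares at rest had group means of 0.0518% in both strains for Tnnt1, 0.0183% in BL6 and 0.0210% in MRL for Tnni1, 0.0345% and 0.0356% for Tnnc1, and 0.214% and 0.193% for Tpm3.

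Between the operated groups again 0 of the 9 genes were called by edgeR, against 12.9% of all genes. At an unadjusted p under 0.05 there were 3123 of the 11709 genes tested and 1 of the 9, Tpm2. Its log2 difference was -0.41 ± 0.19 (adjusted p = 0.179, edgeR). DESeq2 and limma voom called 0 of the 9. Groups overlapped for all 9 genes, while 13.6% of all genes had groups apart. Without BL6 operated replicate 4, Tpm2 passed at -0.57 (adjusted p = 0.0115) and Tnnt3 at -0.62 (adjusted p = 0.0388), both lower in MRL. Tnni1 was 1.47 ± 0.72 higher in operated MRL on the log2 scale (adjusted p = 0.207, edgeR), and 0.12 higher without MRL operated replicate 4 (adjusted p = 0.923).

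In BL6 muscle the ratio of Tnnt3 to Tnnc2 separated the operated from the unoperated samples, while the level of each gene did not. Ratios among the abundant genes were chosen after the values were seen and are given as a description with no test. The ratio of Tnnt3 to Tnnc2 per kilobase was 1.13, 1.05, 1.09 and 1.13 in unoperated and 0.785, 0.847, 0.835 and 0.802 in operated BL6 muscle. In MRL it was 0.884, 0.988, 0.987 and 0.909 without and 0.730, 0.737, 0.728 and 0.921 with surgery. The BL6 groups were apart, with a coefficient of variation of 3.52% in the operated one, where Tnnt3 itself ran from 11306 to 34765 CPM. The MRL groups were apart but for operated replicate 4, which sat among the unoperated samples.

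Tpm1 against Tnnc2 stood at 0.119 to 0.124 in unoperated and 0.0704 to 0.0797 in operated BL6 muscle. In MRL the ratio was 0.141 to 0.160 without surgery and 0.0821, 0.0966, 0.0873 and 0.138 with it, where the last value is that of replicate 4. The groups were apart in both strains, in MRL by the small gap between this sample and the lowest unoperated one. Tnni2 against Tnnc2 went the other way, from 0.454 to 0.471 up to 0.495 to 0.578 in BL6 and from 0.509 to 0.536 up to 0.538 to 0.609 in MRL. Tpm2 against Tpm1 stood at 1.96 to 2.09 in unoperated BL6 and at 1.31 to 1.65 in unoperated MRL muscle. After surgery it stood at 2.003 to 2.96 in BL6 and at 1.65 to 2.04 in MRL. In none of these 4 ratios did the unoperated groups of the strains overlap. The build named in the submitters' processing notes is mm10, which is the C57BL/6J genome, for both strains. The effect of this on the strain differences was not tested.

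**Figure D4:**
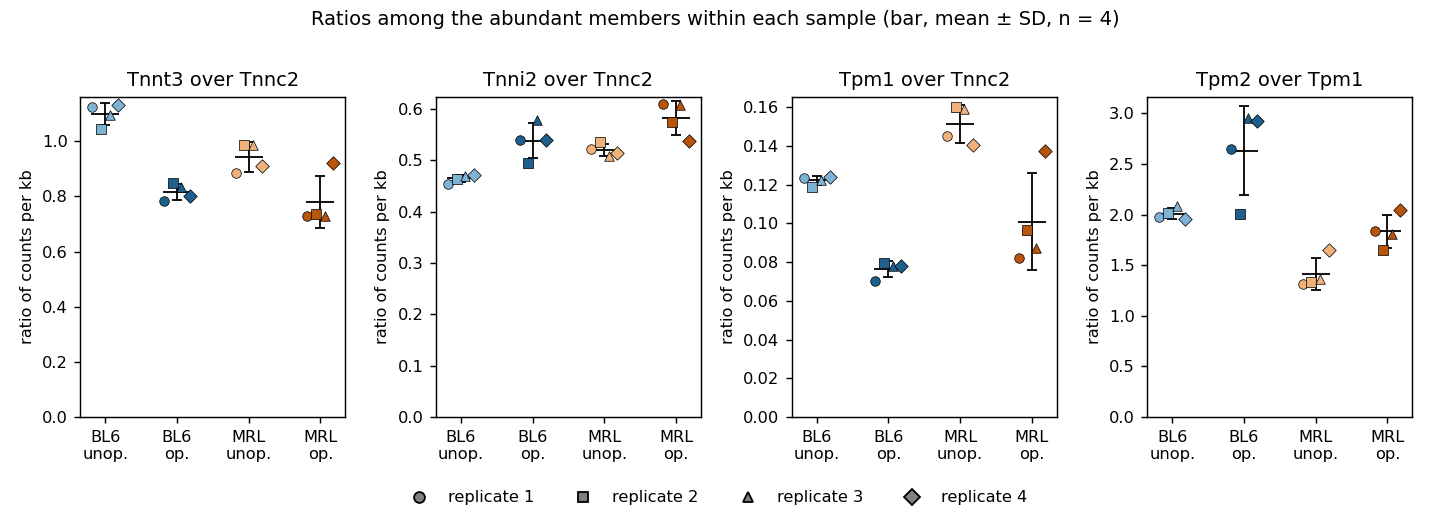
Ratios per kilobase between abundant thin filament genes in each sample, with 1 panel per ratio and points for the 4 samples of each group. Tnnt3 to Tnnc2 lies at 1.05 to 1.13 in unoperated BL6 and at 0.785 to 0.847 in operated BL6 samples, and 1 operated MRL sample, at 0.921, lies within the unoperated MRL range.

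Samples of a group differed along the same lines for the slow genes and, separately, for the abundant ones. As deviations of log2 CPM from group means over the 16 samples, the 6 pairs among Tnnt1, Tnni1, Tnnc1 and Tpm3 had Pearson correlations of 0.879 to 0.956, and 0.762 to 0.912 over the 15 samples without MRL operated replicate 4. The 10 pairs among Tnnt3, Tnni2, Tnnc2, Tpm1 and Tpm2 had correlations of 0.704 to 0.986, and 0.915 to 0.989 without that library. The 20 pairs of a slow and an abundant gene were all negative, from -0.614 to -0.0101, and from -0.410 to -0.0046 without that library. The points share library, depth and scaling factor, so the correlations are a description. In MRL operated replicate 4 the deviation was 1.81 for Tnnt1, 2.54 for Tnni1, 2.76 for Tnnc1 and 1.16 for Tpm3, and in replicate 2 of that group it was -1.96, -2.37, -2.47 and -0.89.

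**Figure D5:**
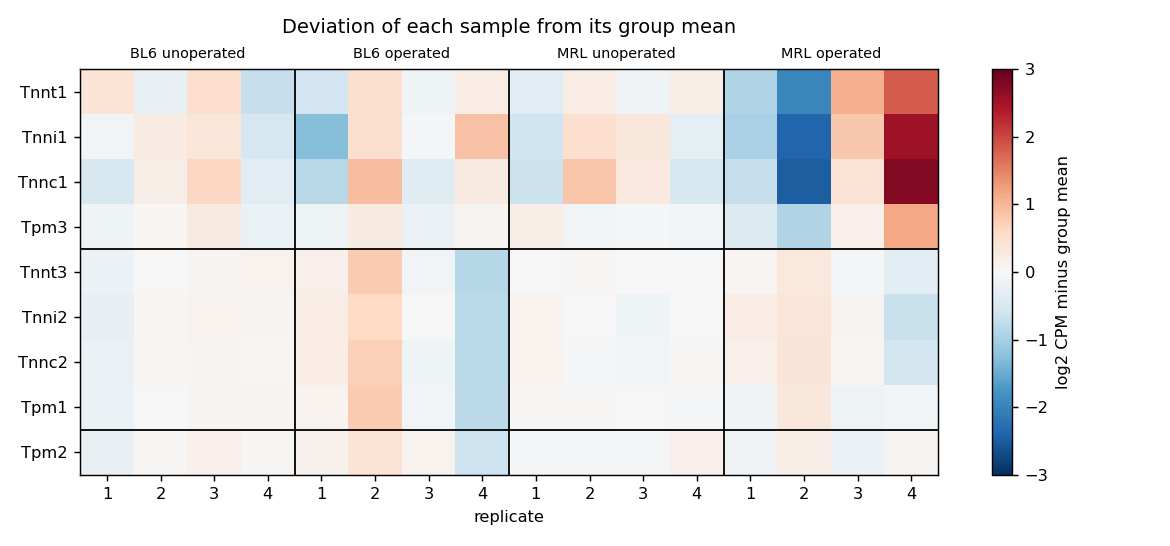
Deviation of log2 CPM from the group mean for the 9 genes in each of the 16 samples, as a colour map. The widest deviations are those of the slow genes in operated MRL muscle, from -2.47 to 2.76 for Tnnc1.

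The nuclear genes with full names outside the 9 whose deviations followed the mean of the slow troponins most closely were Myh7 and Myl3. Myh7 is the slow myosin heavy chain (r = 0.939 over 16 samples, 0.875 without MRL operated replicate 4), and Myl3 a slow myosin light chain (0.913 and 0.823). Fut10 (0.909 and 0.870), Hnrnpul1 (0.880 and 0.779) and Minpp1 (0.874 and 0.727) came next. For the mean of the fast troponins they were Dhrs7c, a gene of the muscle sarcoplasmic reticulum (0.985), Denr (0.980), Ak6 (0.977), Phb (0.973) and Anapc16 (0.973). No myosin gene was among the latter 5.

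Among other genes of slow fibres (11 tested), 3 were called higher and 1 lower after surgery in BL6, and 6 higher and 1 lower in MRL, with median log2 fold changes of 0.34 and 0.79. Of all genes tested, 35.1% were called higher and 32.8% lower in BL6, and 22.3% and 22.7% in MRL. Without MRL operated replicate 4 the MRL list gave 3 higher and 1 lower call, with a median of 0.42. In BL6 that fit called Csrp3, Myoz2 and Ankrd2 higher and Mybpc1 lower. In MRL it called Myl2, Casq2 and Csrp3 higher and Mybpc1 lower. Myh7 stood at 5.56, 7.78, 19.4 and 4.30 CPM in unoperated and 3.87, 21.1, 5.62 and 10.9 CPM in operated BL6 muscle. In MRL it stood at 2.08, 19.0, 10.9 and 1.41 CPM without and at 2.19, 0.936, 16.2 and 201 CPM with surgery, where 1 sample carried the high value. It was not called in either strain (log2 fold change 0.16 ± 1.19, adjusted p = 0.912, and 2.72 ± 1.24, adjusted p = 0.0830, edgeR). The slow light chains Myl2, Myl3 and Myl6b were called higher in MRL, by 1.69, 2.67 and 0.73 on the log2 scale, though the groups overlapped for all 3. Myl3 stood at 0.948, 5.49, 3.64 and 1.08 CPM in MRL muscle without surgery and at 1.58, 0.728, 11.4 and 57.2 CPM after it. Without replicate 4 of the operated group Myl2 was still called (1.28, adjusted p = 0.0112), and Myl3 (0.72, adjusted p = 0.447) and Myl6b (0.24, adjusted p = 0.285) were not. In BL6 their fitted values were 0.56, 0.07 and 0.26 with no call.

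Genes of fast fibres (11 tested) gave 1 higher and 5 lower calls in BL6 and 0 higher and 4 lower calls in MRL, with medians of -0.48 and -0.82. Beside these and the regulators below, 35.1% of all genes tested were called higher and 32.8% lower in BL6. In MRL the shares were 22.3% and 22.7%. Myh4, the fastest myosin heavy chain, fell by 1.18 on the log2 scale in BL6 (adjusted p = 0.0176, edgeR), and in MRL its value was -0.82 (adjusted p = 0.106). Yet its BL6 groups overlapped. All operated MRL samples, at 11282 to 17286 CPM, lay below all unoperated ones, at 19872.5 to 26059 CPM. Myh1 and Myh2, the other heavy chains of fast fibres in the list, were not called, at -0.34 (adjusted p = 0.139) and -0.08 (adjusted p = 0.819) in BL6 and at 0.30 (adjusted p = 0.227) and 0.22 (adjusted p = 0.557) in MRL. Myl1, a fast light chain, rose by 0.44 in BL6 (adjusted p = 0.0248) and was at -0.09 in MRL. Of 11 regulators of fibre type, 1 was called higher and 8 lower in BL6, and 0 higher and 6 lower in MRL, or 10 lower without MRL operated replicate 4. Sox6, a repressor of slow fibre genes, stood at 141 to 174 CPM in unoperated and 22.5 to 63.6 CPM in operated BL6 samples, and at 91.7 to 156 and 32.2 to 74.5 CPM in MRL. It fell by 2.03 ± 0.30 on the log2 scale in BL6 (adjusted p = 6.28e-05, edgeR) and by 1.43 ± 0.30 in MRL (adjusted p = 0.00265). Six4 and Eya1, activators of fast fibre genes, also fell in both strains, by 1.71 and 0.78 in BL6 and by 0.90 and 1.01 in MRL. Named by list order, these genes do not stand for the whole list. Without MRL operated replicate 4, Mef2c was at -1.01 in BL6 (adjusted p = 3.12e-05, edgeR) and -0.61 in MRL (adjusted p = 0.00444). In the same fit Ppargc1a was at -0.61 in BL6 (adjusted p = 0.293) and -1.545 in MRL (adjusted p = 0.0327).

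Other thin filament genes (14 tested) gave 2 higher and 8 lower calls in BL6 and 2 higher and 5 lower in MRL, with medians of -0.60 and -0.34. Without MRL operated replicate 4 it was 9 lower in MRL, with a median of -0.53. With all libraries, 35.1% of all genes tested were called higher and 32.8% lower in BL6, and 22.3% and 22.7% in MRL. Acta1, the skeletal actin, fell by 0.99 ± 0.21 on the log2 scale in BL6 (adjusted p = 0.000848, edgeR) and by 0.76 ± 0.21 in MRL (adjusted p = 0.00999). Actc1, the cardiac actin that is also the fetal form of skeletal muscle, rose by 0.98 ± 0.40 (adjusted p = 0.0402) and by 1.23 ± 0.40 (adjusted p = 0.0227). Tmod1, a cap of the thin filament's pointed end, fell by 0.91 and 0.81. Neb, the nebulin gene, fell by 1.92 in BL6 (adjusted p = 0.000107) and was at -0.51 in MRL (adjusted p = 0.171). No gene of these lists was called in the interaction. The median of the summed skeletal muscle markers was 47669 CPM in unoperated and 26457 in operated BL6 muscle, and 36936 and 25401 CPM in MRL. Their part in these counts was not tested. Tnnt2 and Tpm4, the remaining troponin T and tropomyosin genes, were singled out after their values were seen: Tnnt2 ran from 1.08 to 6.78 CPM over all samples and was not called, and Tpm4, a tropomyosin of non-muscle cells and repairing fibres, was called higher, at 1.79 in BL6 and 1.25 in MRL.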

How the data were processed

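RNA sequencing counts of 16 samples were analysed, with strain and surgery taken from the labels. The deposited values are whole-number counts per gene, not normalized. Per the submitters' processing notes FastQC, STAR, edgeR and the build mm10 were used; versions, counting program and use of strand are not given in the sources used here. A second table deposited by the authors holds, per the file headers, log2 fold changes, p-values and false discovery rates for 4 group comparisons. It was used only to compare calls. Gene positions and exon lengths came from GENCODE M21 (GRCm38), in which 11708 of the 11710 gene IDs were found.

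From the counts, edgeR 4.0.16 in R 4.3.3 was run with TMM scaling and filterByExpr (minimum count 10, 11709 genes kept), with 1 mean per group over all 16 samples and a quasi-likelihood F test. P-values were adjusted by Benjamini-Hochberg over all genes tested, with calls at an adjusted p under 0.05. CPM values use TMM-scaled totals, and log2 CPM a prior count of 2. The SE is the log2 fold change over the square root of F. Slow to fast ratios used counts plus 0.5 per kilobase of all annotated exons of a gene and two-sided exact permutation tests, in which the interaction exchanged strain labels within operated and within unoperated samples.

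All 9 genes are named. From the other lists at most the first 4 measured genes in list order are named, and 1 of them is not reported here. Likeness to the troponins was taken over genes of at least 5 CPM on average. Mitochondrially encoded genes and genes with provisional names (Gm, Rik or accession-style) were left out of that ranking. The 9 genes and the lists were chosen with earlier results of these data known. Of the listed genes, Tnni3, Prox1, Myocd and Lep were not analysed here. The fits and permutation tests were also tested on simulated data. Alternatives were RLE factors, total counts alone, no mitochondrial genes, other count filters, DESeq2 1.42.0, limma 3.58.1 (voom), a fit of only the groups compared, a replicate block and leaving out each library. A fit without 3 libraries (BL6 operated replicate 4, MRL operated replicate 4 and MRL unoperated replicate 1), and list counts without MRL operated replicate 4, were added after the data were seen.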

Additional observations from a re-analysis of the deposited data

Results flagged for a closer look

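In groups of 4 a sample was singled out when its gap to the nearest other sample exceeded Dixon's 95% critical value, and 5 of the 52 groups of values tested held one. Chance alone flags about 1 in 20 groups. Replicate 1 of unoperated BL6 muscle was low for 2 fast troponins, at 10078 CPM for Tnnc2 and 8571 CPM for Tnni2. For Tpm1, replicate 2 of operated MRL muscle was high, at 10896 CPM. For Tpm2, replicate 4 of unoperated MRL muscle was high, at 9648 CPM. The log2 ratio of Tnni1 to Tnni2 was low, at -13.06, in replicate 4 of unoperated BL6 muscle.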

How the results depend on the processing

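Tnnt1 and Tpm3 kept their calls in both strains under all 26 alternatives. A set of 3 libraries (BL6 operated replicate 4, MRL operated replicate 4 and MRL unoperated replicate 1) was left out together after the data were seen. It does not hold BL6 operated replicate 2, which was left out singly. The number of the 9 genes called was 4 in BL6 with total counts alone (Tnni2 and Tpm1 added) and 4 with only the groups compared (Tnni1 and Tnnc1 added), and 3 in MRL with limma voom and without the 3 libraries (Tnni1 and Tnnc1 lost in each). Between strains it was 1 for unoperated muscle with only the groups compared (Tnnt3, adjusted p = 0.0268), and 1 for operated muscle without the 3 libraries (Tpm2). In BL6 the fit without the 3 libraries kept the calls of Tnnt1 and Tpm3 and added Tnni2 as higher (0.58, adjusted p = 0.00325, edgeR). Over all genes, interaction calls moved from 29 to 14 (total counts alone), 250 (DESeq2), 2 (replicate block) and 67 (without the 3 libraries), and fits of only the groups compared called 2438 genes between unoperated and 574 between operated strains. Leaving out 1 library gave 7189 to 8177 calls in BL6, 3490 to 6145 in MRL, 1 to 69 in the interaction, 821 to 1572 between unoperated and 1030 to 1842 between operated strains, and among the 9 genes 2 to 4 in BL6, 2 to 5 in MRL and 0 to 2 between operated strains.

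With the replicate block the ratio differences were 2.11 (Tnnt1, BL6), 1.61 (Tpm3, BL6) and 1.85 (Tpm3, MRL) with an exact p of 0.125, the smallest that this pairing allows. In the edgeR fit the block ended the call of Tnnc1 in MRL (adjusted p = 0.0549) and no other call of the 9 genes. Whether replicate numbers pair the samples could not be settled from these data. The mean correlation of same-numbered deviations was -0.141, 0.092, 0.16 and 0.165 over 4 pairs of groups. For other numbers it was 0.0531, -0.0405, -0.0463 and -0.0443 in the same order. Samples correlated best with their own number in 0 to 2 of 4 cases. With so few samples per group such correlations cannot exclude a pairing. Without the 3 libraries those ratios were 1.76 (exact p = 0.0571), 1.31 (exact p = 0.0571) and 1.49 (exact p = 0.1), and in MRL the ratios of Tnnt1, Tnni1 and Tnnc1 were 1.46, 0.16 and 0.13. These ratios then changed sign: Tnnt1 -0.30 (interaction) and -0.10 (operated strains), Tnni1 -0.16 (interaction), Tnnc1 -0.48 (interaction), 0.19 (unoperated strains) and -0.29 (operated strains), and Tpm3 -0.024 (operated strains).

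Leaving out 1 library per fit moved the Tnnt1 ratio from 1.76 to 2.36 (BL6), 1.57 to 3.03 (MRL), -0.54 to 0.92 (interaction), -0.19 to 0.27 (unoperated strains) and -0.46 to 1.001 (operated strains). The Tnni1 ratio ran from 0.33 to 1.39 (BL6), 0.40 to 2.38 (MRL), -0.49 to 1.49 (interaction), -0.049 to 0.39 (unoperated) and -0.34 to 1.64 (operated). The Tnnc1 ratio ran from 0.61 to 1.33 (BL6), 0.38 to 2.44 (MRL), -0.59 to 1.47 (interaction), -0.36 to 0.19 (unoperated) and -0.66 to 1.40 (operated). The Tpm3 ratio ran from 1.31 to 1.78 (BL6), 1.44 to 2.26 (MRL), -0.17 to 0.65 (interaction) and -0.32 to 0.51 (operated). With 3 samples against 4 the exact permutation p cannot go below 0.0571.

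No called gene changed sign, and of the 45 fold changes (9 genes in 5 comparisons) 18, none of them called, changed sign under some alternative, never with a call. With total counts alone, which move the median of all genes from 0.04 to 0.18 in BL6 and from 0.007 to 0.147 between unoperated strains, these were Tnnc2 at 0.013 (MRL surgery), and Tnnc1 at 0.077 and Tnnc2 at 0.082 (unoperated strains). With limma voom it was Tnnt1 at -0.091 (operated strains). Without the 3 libraries they were Tnnc2 at 0.15 (MRL surgery), Tnnc1 at -0.49 and Tpm3 at -0.074 (interaction), Tnnc1 at 0.12 (unoperated strains), and Tnnt1 at -0.10, Tnnc1 at -0.37, Tpm1 at -0.12 and Tpm3 at -0.067 (operated strains). Leaving out 1 library gave, for surgery, -0.52 to 0.0011 (Tnnt3), -0.074 to 0.41 (Tnnc2) and -0.30 to 0.0088 (Tpm2) in BL6, and -0.16 to 0.13 (Tnnc2) in MRL. For the interaction it gave -0.32 to 0.20 (Tnnt3), -0.15 to 1.56 (Tnni1), -0.37 to 1.68 (Tnnc1), -0.44 to 0.051 (Tnnc2), -0.39 to 0.13 (Tpm1), -0.30 to 0.0058 (Tpm2) and -0.19 to 0.58 (Tpm3). Between unoperated strains it gave -0.42 to 0.18 (Tnnc1), and between operated strains -0.18 to 0.92 (Tnnt1), -0.36 to 0.070 (Tnni2), -0.44 to 1.61 (Tnnc1), -0.16 to 0.37 (Tpm1) and -0.11 to 0.67 (Tpm3). The cause of these shifts was not tested.

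Exon length per gene is a choice too: with the longest transcript as the length the mean Tnnt1 share at rest was 0.0735% in both strains, and that of Tpm3 was 0.245% in BL6 and 0.220% in MRL.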
